A study of Mus musculus with 18 samples.

Results

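The 9 genes described here, Naip5, Prg4, Gsta4, Mtmr7, Hopx, Pla2g4f, 1110032F04Rik, Gm8369 and Bank1, are transcripts for which the difference between regulatory (Treg) and conventional (Tconv) CD4 T cells was unlike in lymph node and in thymus or fat of the mouse. They were chosen on these arrays for that difference, out of 18193 genes with a probe set annotated to a single symbol, and all 9 were among the 12821 genes that passed the filter on dim signals. The values that chose them, the Treg minus Tconv differences of each tissue and the gaps between tissues, are therefore given as a description. The label under which they were grouped, a Treg bias that switches by tissue, holds in its literal sense for Gm8369 and Bank1, where the arrays of Treg lay above those of Tconv in lymph node and below them in fat. In the other 7 genes Treg stood above Tconv in at least 1 tissue and the 2 groups overlapped in at least 1 other.

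The series holds 18 arrays (Affymetrix M430v2), 3 for each of 6 groups: Treg, sorted as CD25+, and Tconv, sorted as CD25-, both CD4+ and without B220, CD11b or CD8a, of lymph node, thymus and epididymal abdominal fat. Lymph node cells came from C57BL/6 mice of 32 to 36 weeks, pooled over cervical, inguinal and mesenteric nodes of 3 to 6 mice per array. For fat, 8 to 10 male C57Bl/6 mice aged 25 to 35 weeks were pooled per array and TCRb+ was added to the sort. Thymus cells came from BDC2.5/NOD mice, which carry a transgenic T cell receptor on the NOD background, of 4 to 6 weeks, in pools of 3 to 6, after a depletion of CD8a cells. Strain, transgenic receptor, age and tissue thus cannot be told apart in any comparison with thymus. The gate was CD25 and not Foxp3, so activated cells that carry CD25 can be among the Treg.

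Treg are CD4 T cells that restrain immune responses and depend on the transcription factor Foxp3. Most of them arise in the thymus, circulate through lymph nodes and take on further programmes in tissues, of which those of visceral fat are a well known case. A part of the transcripts that set Treg apart is shared between organs and a part is acquired in the organ; the genes below were picked for a difference between organs.

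Markers of Treg were checked first. Of 7 Treg markers, 7 were higher in Treg of lymph node, 7 in thymus and 6 in fat (limma, Benjamini-Hochberg adjusted p under 0.05 over 12821 genes, the threshold used throughout for a call), the exception in fat being Il2rb (log2 difference 0.22 ± 0.16 SE). Il2ra encodes CD25, the sort marker, and is no finding. In the fat arrays the sum of 14 stromal and mesothelial markers lay between 2997 and 8871, against 417 to 509.7 in lymph node, and Fabp4, a fatty acid carrier of adipocytes and macrophages, averaged 2312 ± 631 (SD, n = 3) in Tconv and 2529 ± 437 in Treg of fat against 7.30 ± 0.581 and 7.73 ± 0.978 in those of lymph node. In bulk samples fewer cells of a type and less RNA per cell cannot be told apart. Fat arrays also had higher medians (76.9 to 82.2 in 6 arrays against 57.9 to 63.0 in the other 12). Levels were therefore tested between tissues only after quantile normalization of all 18 arrays, while Treg and Tconv of the same tissue were compared on the values as deposited. Intensities, marker sums and means of listed genes are printed as deposited, so between fat and the other tissues they include this shift in medians. The limit for dim signals, 65.9, is on that scale too and lies under the median of every fat array.

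The 250 bases upstream of the start site, from RefSeq's annotation of GRCm38.p6, are shown for 4 genes: Naip5 and Hopx, whose arrays moved together most closely among the 9, and Gm8369 and Bank1, the pair with opposite signs in lymph node and fat. The table of promoters held 6 windows for 5 of the 9 genes. The windows, 5′ to 3′, are chr13:100247337-100247586 (Naip5), chr5:77095268-77095517 and chr5:77115124-77115373 (the inner and outer start sites of Hopx), chr19:11491788-11492037 (Gm8369) and chr3:136326067-136326316 (Bank1); Gm8369 lies on the plus strand and the others on the minus strand. Capitals mark a match to GGAAAA or its reverse complement, the core of sites bound by NFAT, which T cell receptor signalling activates.
Naip5: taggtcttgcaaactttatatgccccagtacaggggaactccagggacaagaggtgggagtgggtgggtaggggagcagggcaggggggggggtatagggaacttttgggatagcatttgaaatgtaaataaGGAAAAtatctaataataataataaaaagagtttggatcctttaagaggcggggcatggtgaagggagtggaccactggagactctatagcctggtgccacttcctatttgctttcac
Hopx, inner start site: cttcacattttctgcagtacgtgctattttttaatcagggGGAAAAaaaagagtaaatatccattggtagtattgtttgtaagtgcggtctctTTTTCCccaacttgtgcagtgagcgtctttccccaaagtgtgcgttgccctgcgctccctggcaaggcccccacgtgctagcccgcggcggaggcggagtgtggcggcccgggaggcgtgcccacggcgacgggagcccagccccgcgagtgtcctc
Hopx, outer start site: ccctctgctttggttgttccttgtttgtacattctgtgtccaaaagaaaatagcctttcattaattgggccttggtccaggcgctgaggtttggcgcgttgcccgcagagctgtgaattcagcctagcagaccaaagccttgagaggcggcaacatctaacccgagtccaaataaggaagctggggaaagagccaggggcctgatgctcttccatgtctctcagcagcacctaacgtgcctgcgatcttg
Gm8369: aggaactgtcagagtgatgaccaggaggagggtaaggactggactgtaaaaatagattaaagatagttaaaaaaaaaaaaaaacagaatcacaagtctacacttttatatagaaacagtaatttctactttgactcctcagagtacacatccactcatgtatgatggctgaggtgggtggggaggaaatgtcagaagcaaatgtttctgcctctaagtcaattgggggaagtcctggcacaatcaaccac
Bank1: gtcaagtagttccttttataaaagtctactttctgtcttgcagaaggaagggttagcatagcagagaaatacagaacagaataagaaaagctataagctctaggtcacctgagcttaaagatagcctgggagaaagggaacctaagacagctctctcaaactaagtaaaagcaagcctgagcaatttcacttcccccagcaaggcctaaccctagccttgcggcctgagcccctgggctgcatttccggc

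The 5 motifs searched, on both strands, were chosen as cores of factors known in Treg and activated T cells. The match GGAAAA stood 112 bases from the start site of Naip5 and 204 and 151 bases from the inner start site of Hopx, and in none of the other 4 windows. It occurs in 20.4% of 32817 windows of the same length, so such a match is common. The forkhead motif TGTTTAC (3.16% of windows), the AP-1 motif TGANTCA (6.75%), the Runx motif TGTGGT (14.0%) and the STAT motif TTCNNNGAA (7.01%) had no match in the 6 windows, which says only that these letters are not there.

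**Figure D1:**
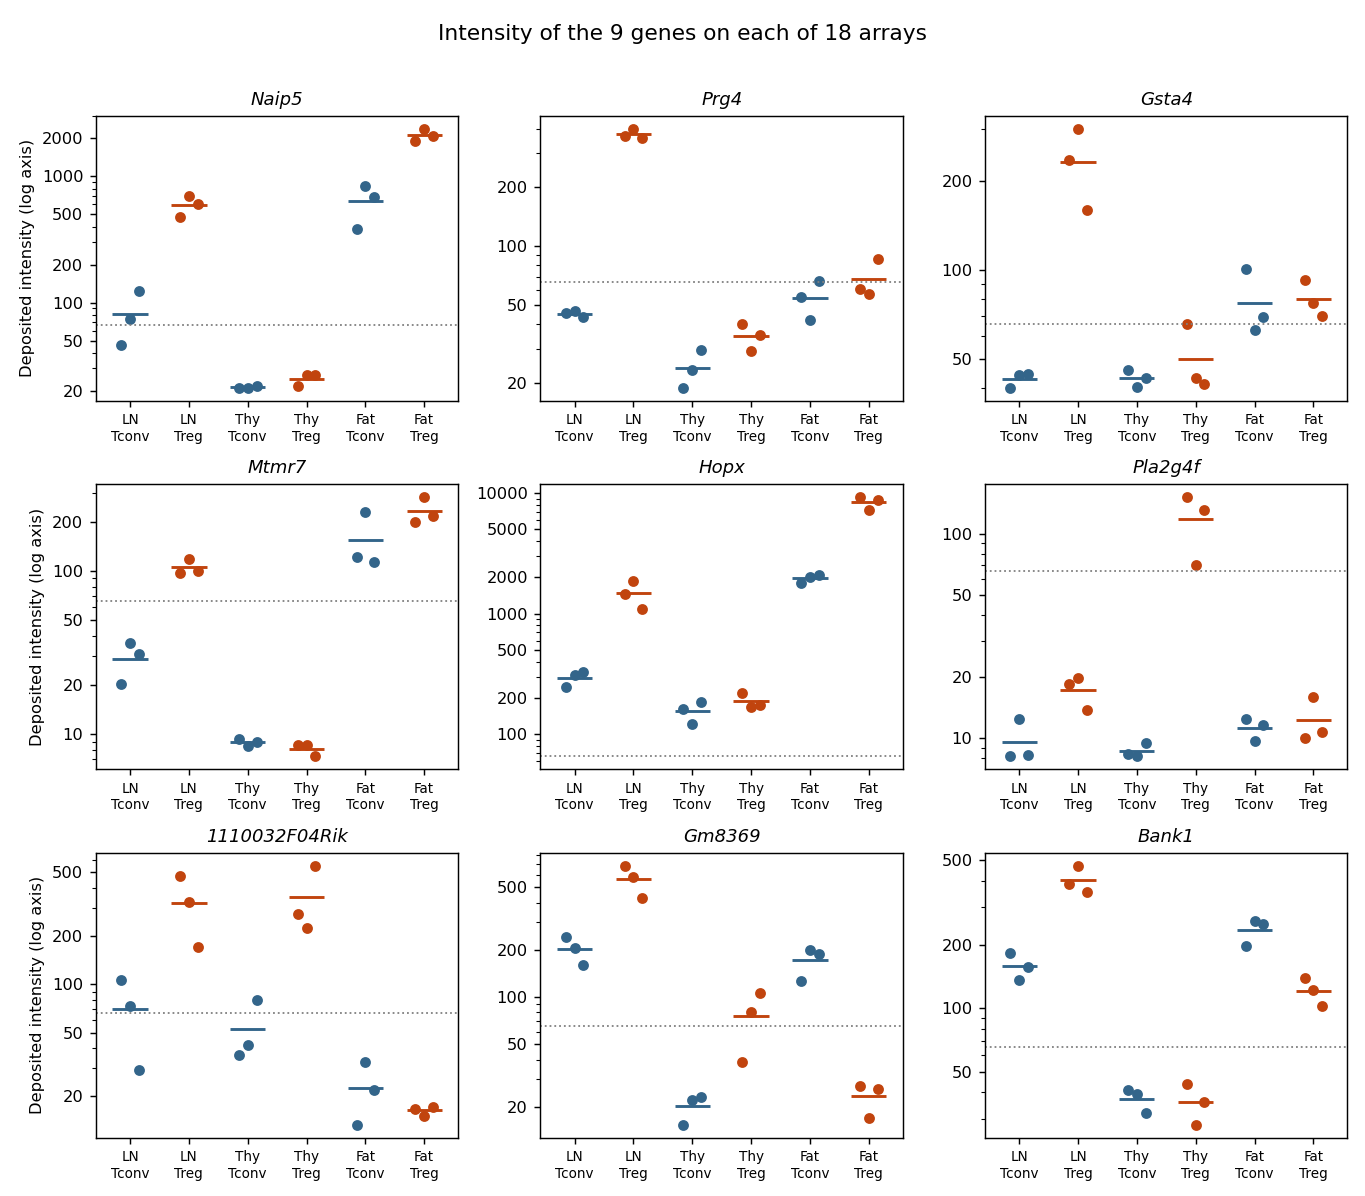
Deposited intensity (log axis, each panel on its own scale) of the 9 genes on each of 18 arrays; points are arrays, bars are means of 3, LN is lymph node, Thy is thymus, and the dotted line is the dim limit of 65.9, the median of all values. Lymph node Treg is above lymph node Tconv in every panel. In thymus the Treg arrays all lie above the Tconv arrays for Pla2g4f, 1110032F04Rik and Gm8369. Fat Treg is below fat Tconv for Gm8369 and Bank1.

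Naip5 encodes a cytosolic sensor that binds bacterial flagellin and starts the Nlrc4 inflammasome. Its intensities were 45.8, 74.4 and 123 in lymph node Tconv and 477, 702 and 605 in lymph node Treg. In fat they were 386, 832 and 686 in Tconv and 1903, 2395 and 2076 in Treg. In thymus all 6 arrays lay between 21.1 and 26.8, far under the dim limit of 65.9; where a group lies at or under that limit the size of a log2 difference is uncertain, and no fold is given. Treg and Tconv did not overlap in lymph node or in fat, and did in thymus. The differences were 2.97 ± 0.29 (log2, SE; 7.84-fold) in lymph node, 1.81 ± 0.29 (3.50-fold) in fat and 0.22 ± 0.29 in thymus. Tconv of fat were already at the level of Treg of lymph node: on the quantile-normalized scale their group means were 9.06 and 9.29 (log2) and their arrays overlapped. By the rule of carriage, which names the group whose removal leaves the other 3 of 2 tissues much closer together (in under 0.5 of the range) than the removal of any other group, lymph node Treg carried the gap to thymus, and no single group carried the gap to fat.

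Naip5 lies between Naip2 and Naip6 in a run of near-identical copies, so its probe set may read more than 1 of them and the level is uncertain in that sense. Of 10 measured genes of Naip proteins and inflammasomes besides Naip5, 4 were higher in lymph node Treg, among them Casp4 (1.24 ± 0.25, limma adjusted p = 0.005), the caspase that senses intracellular lipopolysaccharide, Naip2 (1.05 ± 0.25, 0.021) and Naip6 (0.92 ± 0.17, 0.00337). Their median difference was 0.53 against -0.02 over all genes tested. In thymus Casp4 (1.91 ± 0.25) and Casp1 (1.53 ± 0.21), the caspase that matures Il1b and Il18, were higher, with a list median of 0.07. In fat Il18 (1.29 ± 0.16), Naip6 (1.28 ± 0.17) and Naip2 (0.85 ± 0.25) were higher and Casp1 was lower (-1.30 ± 0.21), with a list median of 0.34 against 0.01. Naip2 and Naip6 averaged 62.1 and 259 in lymph node Treg and 153 and 736 in fat Treg, and 35.8 and 126 in thymus Treg, so the order of tissues in Treg was that of Naip5 on the deposited scale.

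Hopx is a small homeodomain protein that binds no DNA and acts through partners such as serum response factor and AP-1 proteins; it is known in Treg induced in the periphery. Its intensities were 247, 311 and 329 in lymph node Tconv and 1453, 1881 and 1104 in lymph node Treg. They were 1787, 2022 and 2087 in fat Tconv and 9279, 7281 and 8816 in fat Treg. In thymus they were 164, 123 and 185 in Tconv and 222, 168 and 177 in Treg, with overlap, so Hopx was low in both thymic groups and highest in Treg of fat. The Treg difference was 2.30 ± 0.20 (4.92-fold) in lymph node and 2.10 ± 0.20 (4.29-fold) in fat, against 0.27 ± 0.20 in thymus. Lymph node Treg carried the gap between thymus and lymph node. A dimmer probe set of Hopx gave 1.78 in lymph node and 0.64 in thymus. On that probe set the gap of thymus to lymph node was -1.14 ± 0.29 and was not called (limma adjusted p = 0.295 over all probe sets), so the call of this gap depends on the probe set.

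Hopx also stood apart between Tconv of the tissues. On the quantile-normalized scale fat Tconv exceeded lymph node Tconv by 2.41 ± 0.19 (5.31-fold) and fat Treg exceeded lymph node Treg by 2.08 ± 0.19 (4.23-fold). The order of levels was fat Treg, fat Tconv, lymph node Treg, lymph node Tconv, thymus Treg and thymus Tconv, with overlap between fat Tconv and lymph node Treg and between the thymic groups. Within fat, 1 of 7 tested stromal and mesothelial markers was higher in Treg (Lrrn4, 1.95 ± 0.30) and the list median was 0.37. The part of stromal RNA in the level of Hopx in fat was not tested.

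Of 15 measured partner and AP-1 genes, 1 was higher in lymph node Treg (Mrtfb, a coactivator of serum response factor, 0.44 ± 0.11) and none was lower. In thymus Jun (2.18 ± 0.38) and Fosl2 (1.44 ± 0.25), subunits of AP-1, were higher. In fat Fosb (1.77 ± 0.28) and Fosl2 (0.88 ± 0.25) were higher and Il2, which Hopx is known to restrain in induced Treg, was lower (-0.63 ± 0.16, limma adjusted p = 0.015). The list medians were 0.04, 0.10 and 0.13, against -0.02, -0.02 and 0.01 over all genes. Fosb and Fosl2 averaged 2027 and 6360.1 in fat Tconv against 51.3 and 156 in lymph node Tconv, so the fat arrays were high for these immediate early genes in both cell types.

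Mtmr7 encodes a myotubularin, a family of phosphatases that act on inositol lipids of endosomes. Its intensities were 20.2, 36.1 and 30.8 in lymph node Tconv and 97.9, 119 and 99.8 in lymph node Treg, without overlap. In fat they were 122, 229.6 and 113 in Tconv and 201, 284 and 217 in Treg, with overlap, and in thymus all 6 lay between 7.32 and 9.37. The gene thus read low in all thymic arrays and above the dim limit in all fat arrays. The contrast of Treg with Tconv was 1.90 ± 0.24 in lymph node, 0.66 ± 0.24 in fat and -0.13 ± 0.24 in thymus. The difference in fat passed the threshold with the replicate pair as a block (limma adjusted p = 0.00684) and with the array series as a block (0.0108). It also passed after quantile normalization (0.74, 0.0494), and did not pass without these (0.0993). It was 0.98 when fat Tconv replicate 2, the highest of the Tconv, was left out (0.00534).

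For Mtmr7 the group that carried the gap between fat and lymph node was lymph node Tconv, which lay below the other 3 groups; lymph node Treg carried the gap to thymus. The second probe set of the gene was dimmer, with group means of 23.5 and 33.0 in Tconv and Treg of lymph node and 61.6 and 76.5 in those of fat. It gave Treg differences of 0.50, 0.34 and 0.14 in lymph node, fat and thymus. That in lymph node was not called (limma adjusted p = 0.264 over all probe sets). The gaps to lymph node were -0.37 in thymus and -0.16 in fat and were not called either. Both the size and the calls for this gene thus depend on the probe set. Of 12 other measured myotubularins, Mtmr3 was higher in Treg of lymph node (0.58 ± 0.11) and thymus (0.54 ± 0.11). In fat Mtmr10 (0.74 ± 0.16) and Sbf2 (0.73 ± 0.17) were higher and Mtmr4 was lower (-0.94 ± 0.27). The list medians were 0.16, 0.01 and 0.04 in lymph node, thymus and fat.

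Gsta4 encodes a glutathione transferase that clears 4-hydroxynonenal, an aldehyde from oxidised lipids. Its intensities were 40.1, 44.4 and 44.5 in lymph node Tconv and 235, 301 and 159.7 in lymph node Treg. The thymus arrays lay between 40.2 and 66.0 and the fat arrays between 62.8 and 101, with Treg and Tconv overlapping in both. Lymph node Treg was thus the one high group, at 232 ± 70.9 (SD, n = 3). Treg minus Tconv came to 2.39 ± 0.23 in lymph node, 0.19 ± 0.23 in thymus and 0.06 ± 0.23 in fat, and lymph node Treg carried the gap to both tissues. Of 11 other measured glutathione transferases, Gsto1, an omega class enzyme, was the one called in each tissue. It was higher in Treg by 1.70 ± 0.24 in lymph node, 2.29 ± 0.24 in thymus and 1.01 ± 0.24 in fat (limma adjusted p = 0.000176, 6.82e-06 and 0.0078), and the list medians were -0.13, -0.04 and 0.22.

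Pla2g4f encodes a cytosolic phospholipase A2, an enzyme that frees fatty acids from phospholipids, next to Pla2g4e and Pla2g4d. Its intensities were 8.37, 8.25 and 9.46 in thymus Tconv and 151, 70.4 and 131 in thymus Treg. In lymph node they were 8.18, 12.4 and 8.32 in Tconv and 18.4, 19.7 and 13.7 in Treg, and in fat all 6 lay between 9.70 and 16.0. The 3 thymus Treg arrays were the only ones above the dim limit, so the gene passed the filter through that group alone, and the group also carried the gap to lymph node. The Treg difference was 3.69 ± 0.26 in thymus, 0.85 ± 0.26 in lymph node and 0.10 ± 0.26 in fat. In lymph node the arrays of Treg lay above those of Tconv, both under the dim limit, and the difference passed the threshold with the replicate block (limma adjusted p = 0.0298) or the array series as a block (0.0292) and not without them (0.0793), unless lymph node Tconv replicate 2 was left out (0.0483).

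Some genes on the marker lists of other cells were also higher in thymus Treg. The sum of 9 NK and cytotoxic markers lay between 2456 and 7849 there and between 1278 and 1993 in thymus Tconv, and 3 of 7 tested were higher, Gzmb (3.41 ± 0.31), Nkg7 (2.06 ± 0.21) and Eomes (1.83 ± 0.29), while Klrd1 was lower (-1.51 ± 0.36). In 4 of 9 the thymus Treg mean was above the dim limit, and 5 were not. Gzma, the brightest of the 9 in thymus Treg, averaged 3707 ± 2576 there and was not called (limma adjusted p = 0.122). Gzmb was also higher in Treg of lymph node (2.80 ± 0.31) and fat (2.55 ± 0.31), and Nkg7 in Treg of lymph node (0.96 ± 0.21). The sum of 8 mast cell and granulocyte markers lay between 470.2 and 840.2 in thymus Treg against 349 to 483 in thymus Tconv. Of 4 tested, 1 was higher, Kit (1.17 ± 0.22). Cpa3 averaged 282 ± 171 in thymus Treg and 111 ± 32.5 in thymus Tconv and was not called (limma adjusted p = 0.106). The part of such cells in the level of Pla2g4f was not tested. Of 8 other tested genes of phospholipase A2 and arachidonate metabolism, 1 was higher in thymus Treg, Plaat3 (2.49 ± 0.16, limma adjusted p = 2.25e-08), a phospholipase of adipocytes and other cells. None was called in lymph node or fat, and the list medians were -0.15, 0.05 and 0.16 in lymph node, thymus and fat.

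Prg4 encodes lubricin, a secreted mucin-like proteoglycan of joint fluid. Its intensities were 45.4, 46.5 and 43.4 in lymph node Tconv and 366, 399.8 and 359.7 in lymph node Treg. The thymus arrays lay between 18.9 and 40.1 and the fat arrays between 41.8 and 86.5, with overlap of Treg and Tconv in both tissues. Lymph node Treg was again the one high group, and its 3 arrays were close together. Treg minus Tconv stood at 3.06 ± 0.20 in lymph node, with 3.01, 3.10 and 3.05 in the 3 same-numbered pairs, against 0.55 ± 0.20 in thymus and 0.32 ± 0.20 in fat. The difference in thymus passed the threshold with the replicate block (limma adjusted p = 0.0342) and not without it. Lymph node Treg carried the gap to thymus and to fat.

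Lubricin is best known from cells of connective tissue, so stromal markers were set beside it. In lymph node Treg 0 of 14 stromal and mesothelial markers had a mean above the dim limit, and their sum, 462 to 499.5, lay within that of lymph node Tconv, 417 to 509.7. In fat, where the sum reached 8871, Prg4 averaged 54.4 ± 12.2 in Tconv and 68.1 ± 16.1 in Treg. The part of stromal cells in the level of Prg4 was not tested. Of 15 other tested proteoglycan and hyaluronan genes 3 were higher in Treg of every tissue: Sdc4 (0.99 ± 0.22, 1.27 ± 0.22 and 2.50 ± 0.22 in lymph node, thymus and fat), a cell surface heparan sulphate proteoglycan, Cd44 (0.85 ± 0.18, 1.48 ± 0.18 and 0.62 ± 0.18), the hyaluronan receptor, and Srgn (0.52 ± 0.14, 1.21 ± 0.14 and 0.52 ± 0.14), the proteoglycan of secretory granules. Vcan was lower in thymus Treg (-1.86 ± 0.36). The list medians in thymus and fat were 0.04 and 0.15, and that in lymph node rounded to 0.

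Bank1 encodes a scaffold protein known from B cells, where it links the antigen receptor to calcium release. Its intensities were 183, 136 and 156 in lymph node Tconv and 386, 473 and 356 in lymph node Treg. In fat the order was the opposite, 196, 258 and 251 in Tconv and 139, 122 and 102 in Treg, and in thymus all 6 arrays lay between 28.1 and 44.0. Treg and Tconv did not overlap in lymph node or in fat. Between Treg and Tconv the difference was 1.35 ± 0.19 (2.55-fold) in lymph node, -0.96 ± 0.19 (1.94-fold lower) in fat and -0.07 ± 0.19 in thymus. No single group carried either gap: lymph node Treg was the highest group, followed by fat Tconv and lymph node Tconv, whose arrays overlapped, then fat Treg and the thymic groups. On the quantile-normalized scale Bank1 differed by 0.22 ± 0.17 between Tconv of fat and lymph node and by -2.06 ± 0.17 between their Treg.

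Markers of B cells were set beside Bank1. The sum of 12 of them was 3786 to 3949.7 in lymph node Treg and 3916 to 4067 in lymph node Tconv, and 3408 to 4818 in fat Treg and 2489.8 to 4839.9 in fat Tconv. Ms4a1, which encodes CD20, averaged 411 ± 123 in Treg and 359 ± 78.6 in Tconv of lymph node, and 172 ± 25.5 and 185 ± 53.7 in those of fat. Of 10 tested, Cd79b, a chain of the B cell receptor, was higher in lymph node Treg (1.02 ± 0.26, limma adjusted p = 0.0326) and Pou2af1, a coactivator of B cells that T cells can also express, was lower (-2.07 ± 0.43, 0.00716). In fat none of the 10 was called, and the list median was 0.02. Cd79b was also the one called among 11 tested genes of B cell receptor signalling, in lymph node and in thymus (1.12 ± 0.26), with list medians of -0.05, -0.16 and 0.10. The part of B cells in the level of Bank1 was not tested.

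**Figure D2:**
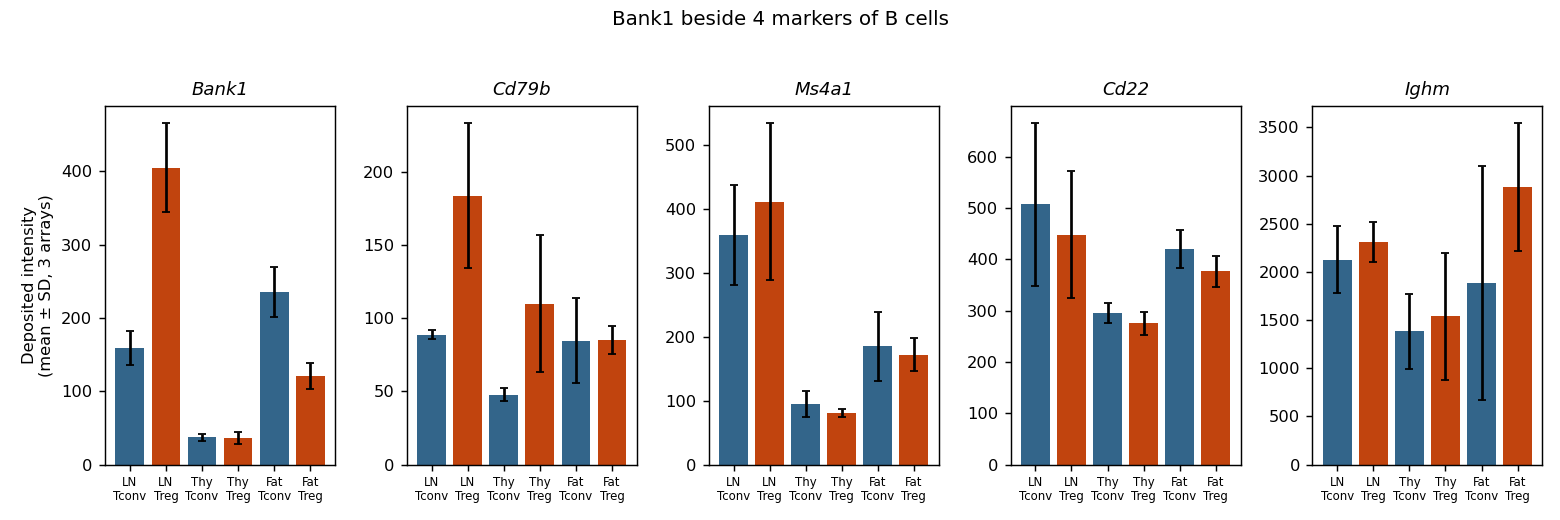
Deposited intensity (linear axis from 0, mean ± SD of 3 arrays per group) of Bank1 and of 4 B cell markers in Tconv (blue) and Treg (red) of lymph node (LN), thymus (Thy) and fat. Bank1 is 405 in lymph node Treg against 159 in Tconv and 121 in fat Treg against 235 in Tconv. Cd79b is 184 in lymph node Treg against 88.8 in Tconv, 109.9 against 47.8 in thymus and 85.2 against 84.7 in fat. Ms4a1, Cd22 and Ighm overlap between Treg and Tconv in each tissue.

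Gm8369 is a predicted protein-coding gene within the Ms4a cluster of four-pass membrane proteins, with Ms4a4c, Ms4a4b and Ms4a6c before it and Ms4a6b, Ms4a4d and Ms4a6d after it. Its intensities were 240.4, 206 and 161 in lymph node Tconv and 688, 586 and 425 in lymph node Treg. In thymus they were 15.4, 22.2 and 23.3 in Tconv and 38.5, 80.6 and 107 in Treg. In fat they were 127, 201 and 189 in Tconv and 27.3, 16.9 and 26.2 in Treg. The 2 cell types were apart in all 3 tissues, with Treg above in lymph node and thymus and below in fat. The Treg difference was 1.48 ± 0.32 (2.78-fold) in lymph node, 1.80 ± 0.32 in thymus and -2.88 ± 0.32 in fat. The gap of -4.36 ± 0.45 between fat and lymph node was the widest among the 9 genes.

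No single group carried that gap of Gm8369, yet Treg differed more than Tconv. On the quantile-normalized scale the log2 difference of fat from lymph node was -4.98 ± 0.30 in Treg and -0.61 ± 0.30 in Tconv. Of 11 other tested Ms4a genes 5 were lower in fat Treg, led by Ms4a4c (-3.19 ± 0.29, limma adjusted p = 5.25e-07), Ms4a4b (-2.43 ± 0.15, 6.66e-09) and Ms4a6b (-2.42 ± 0.22, 4.81e-07), each next to Gm8369 or within the same run of neighbours; the others were Ms4a6c (-1.40 ± 0.27) and Ms4a6d (-1.32 ± 0.35), named after their values were seen. In lymph node none of the 11 was called, with Ms4a4b at 11114 ± 98.4 in Tconv and 10918 ± 582 in Treg, and in thymus Ms4a4c was higher (1.06 ± 0.29). The list medians were 0.01, -0.09 and -0.14. In lymph node Ms4a4b, Ms4a4c and Ms4a6b differed by -0.03 ± 0.15, -0.11 ± 0.29 and 0.17 ± 0.22. Whether the probe set of Gm8369 also reads transcripts of its neighbours was not tested.

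Markers of cytotoxic lymphocytes were also lower in fat Treg, beside Bank1, Gm8369 and the Ms4a genes. The sum of 9 such markers was 6221 to 7499 in fat Tconv and 2346 to 3685 in fat Treg. Of 7 tested, 4 were lower in fat Treg, Eomes (-3.33 ± 0.29), Nkg7 (-3.30 ± 0.21), Klrd1 (-1.60 ± 0.36) and Klrk1 (-0.52 ± 0.14), and Gzmb was higher (2.55 ± 0.31). In 7 of 9 the mean was above the dim limit in both groups. The part of such cells in the difference was not tested.

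1110032F04Rik is a protein-coding gene without an established role, between Il12a and Ift80. Its intensities were 107, 73.1 and 29.4 in lymph node Tconv and 473, 326 and 171 in lymph node Treg. In thymus they were 36.4, 41.8 and 80.0 in Tconv and 277, 226 and 552 in Treg. In fat all 6 arrays lay between 13.3 and 32.8, under the dim limit. The cell types were apart in lymph node and thymus and overlapped in fat, where there was little signal to compare. Treg minus Tconv amounted to 2.28 ± 0.47 in lymph node, 2.72 ± 0.47 in thymus and -0.38 ± 0.47 in fat. The replicates spread widely, yet the pairs of same number differed by 2.15, 2.16 and 2.54 in lymph node and by 2.93, 2.43 and 2.79 in thymus. A second probe set was dim, with group means of 40.2 to 63.8, and gave -0.22 ± 0.11 in lymph node and 0.13 in thymus, so the pattern rests on 1 probe set.

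**Figure D3:**
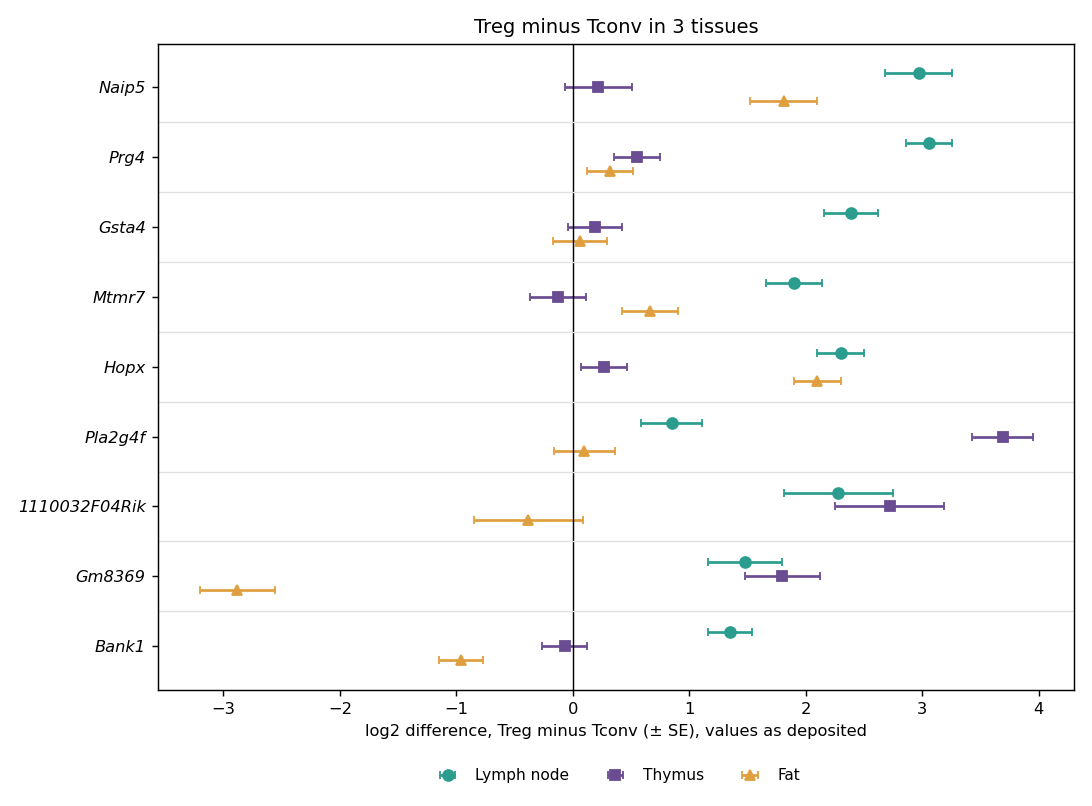
Treg minus Tconv difference (log2, values as deposited; points are estimates, bars ± 1 SE of the limma fit) of the 9 genes in lymph node, thymus and fat. The lymph node points are all right of 0, from 0.85 for Pla2g4f to 3.06 for Prg4, while those of fat run from -2.88 for Gm8369 to 2.10 for Hopx.

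Counted over the 9 genes, Treg and Tconv did not overlap in lymph node for 9, with Treg above, where 16.5% of all genes tested did not overlap (9.91% with Treg above). In thymus 3 were apart with Treg above (19.3% of all genes apart, 9.02% with Treg above), and in fat 2 with Treg above and 2 below (25.2% of all genes apart, 12.2% above and 13.0% below). Past the threshold on the adjusted p, 8 were higher in lymph node Treg (4.32% of all genes called, 3.21% higher; 554 genes, and 1028 with the replicate block), 3 in thymus (4.98% and 3.21%; 638 and 1528 genes) and 2 in fat, with 2 lower there (11.5% of all genes, 6.32% higher and 5.19% lower; 1476 and 2652 genes). The gap to lymph node passed it for 7 genes in thymus (0.304% of all genes; 39, and 136 with the block) and 6 in fat (4.85%; 622 and 1416), and for 4 of them, Prg4, Gsta4, Mtmr7 and Bank1, in both. As the genes were chosen on these contrasts, nothing is read from these counts. Both gaps use the same lymph node arrays.

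The gaps themselves, as the Treg difference in thymus minus that in lymph node, were -2.76 ± 0.42 for Naip5, -2.51 ± 0.28 for Prg4, -2.20 ± 0.32 for Gsta4, -2.03 ± 0.34 for Mtmr7, -2.03 ± 0.28 for Hopx, -1.42 ± 0.26 for Bank1 and 2.83 ± 0.36 for Pla2g4f. In fat minus lymph node they were -4.36 ± 0.45 for Gm8369, -2.73 ± 0.28 for Prg4, -2.66 ± 0.67 for 1110032F04Rik, -2.32 ± 0.32 for Gsta4, -2.31 ± 0.26 for Bank1 and -1.24 ± 0.34 for Mtmr7. The second probe sets of Mtmr7, Hopx and 1110032F04Rik passed the threshold for none of these gaps. Of the 13 gaps, 3 lost their call in most of the 12 fits that leave out 1 array. Mtmr7 in fat passed in 4 of them, those without lymph node Tconv replicate 2, fat Treg 2, fat Tconv 1 or fat Tconv 3 (limma adjusted p over the 12 from 0.0255 to 0.119), and missed the threshold after quantile normalization (0.0515), without the filter (0.0511), with all probe sets (0.0631) and in the arrays of fat and lymph node alone (0.0917). 1110032F04Rik in fat passed in 5, those without lymph node Tconv 1 or 2, lymph node Treg 3, fat Treg 1 or fat Tconv 1 (0.0124 to 0.079). Bank1 in thymus passed in 5, those without thymus Treg 1 or 3, thymus Tconv 3, lymph node Tconv 1 or lymph node Treg 3 (0.0144 to 0.0872). Naip5 in fat, at -1.16 ± 0.42, passed it with the replicate block (limma adjusted p = 0.0199) and not without it (0.153), unless lymph node Tconv replicate 3 (0.0253) or fat Tconv replicate 1 (0.0297) was left out. The calls of 1110032F04Rik and Gm8369 in lymph node were each lost without lymph node Treg replicate 1 (limma adjusted p = 0.0524 and 0.062) or lymph node Tconv replicate 3 (0.0503 and 0.0612), and that of Gm8369 in thymus in the thymus arrays alone (0.0525).

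Some measures are uncorrelated by design with the gaps that chose the genes, though they share the arrays and the estimate of spread, and were tested for the 8 genes above the dim limit in more than 1 group. Pla2g4f is given without a test, since it passed the filter through thymus Treg alone. Prg4 was above the dim limit only in Treg of lymph node and fat, and 1110032F04Rik only in Treg of lymph node and thymus. The fat Treg mean of Prg4 was near the limit (68.1 as deposited, 5.77 in log2 after quantile normalization). For both genes the filter thus favoured a higher mean in Treg and a lower level where they are dim. No support is drawn from their calls. Gsta4 was above the limit in lymph node Treg and in fat. Its means in fat Tconv and Treg were near the limit (77.7 and 80.1 as deposited, 5.99 and 6.03 in log2 after quantile normalization). No support is drawn from the calls of Gsta4 either. The first measure is the mean of the 3 Treg differences, which asks whether Treg exceeded Tconv over all tissues together. It is made of the Treg differences of each tissue, which also belong to the values that chose the genes. Its calls are therefore given as a description. It was higher in Treg for 6 of 8 genes (13.1% of all genes called, 7.96% higher; 1684 genes, and 2853 with the block): 1.66 ± 0.17 for Naip5 (limma adjusted p = 1.73e-06), 1.56 ± 0.11 for Hopx (3.25e-08), 1.54 ± 0.27 for 1110032F04Rik (0.000664), 1.31 ± 0.11 for Prg4 (2.77e-07), 0.88 ± 0.13 for Gsta4 (0.000116) and 0.81 ± 0.14 for Mtmr7 (0.000486). It was 0.13 ± 0.18 for Gm8369 (0.789) and 0.11 ± 0.11 for Bank1 (0.668), the genes whose signs opposed each other, and the value of Pla2g4f was 1.55 ± 0.15. A mean of 3 tissues can pass through 1 of them alone, as the values of Prg4 and Gsta4 above show. The second probe sets gave 0.33 for Mtmr7 (0.0668) and -0.06 for 1110032F04Rik (0.754).

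The second measure is the level of a tissue, averaged over Treg and Tconv, against that of lymph node. Its errors and adjusted p are of the fit without the block, which treats Treg and Tconv arrays of the same number as independent. As these arrays varied together, the errors may be too small. In thymus 7 of 8 genes were lower (20.0% of all genes called, 9.71% lower and 10.3% higher; 2560 genes, and 1669 with the block). The log2 difference of thymus from lymph node was -3.16 ± 0.20 for Naip5 (limma adjusted p = 4.87e-09), -3.13 ± 0.21 for Gm8369 (1.3e-08), -2.74 ± 0.12 for Bank1 (4.41e-11) and -2.65 ± 0.17 for Mtmr7 (4.84e-09). It was -2.13 ± 0.15 for Prg4 (1.39e-08), -1.99 ± 0.14 for Hopx (1.46e-08) and -1.04 ± 0.15 for Gsta4 (5.38e-05). 1110032F04Rik differed by -0.07 ± 0.34 (0.927), and the value of Pla2g4f was 1.28 ± 0.18. In Naip5, Prg4, Gsta4, Mtmr7 and Bank1 both thymic groups lay at or under the dim limit. These genes passed the filter through lymph node or fat, which favoured a lower level in thymus. No support is drawn from their calls. On their second probe sets Mtmr7 differed by -0.45 (limma adjusted p = 0.0256 over all probe sets) and Hopx by -1.20 (5.68e-06). In Tconv alone the difference was -3.30 ± 0.30 for Gm8369, -2.06 ± 0.17 for Bank1, -1.82 ± 0.28 for Naip5, -1.65 ± 0.23 for Mtmr7, -0.96 ± 0.19 for Hopx, -0.91 ± 0.21 for Prg4 and 0.03 ± 0.21 for Gsta4. For Gsta4 that is less than its error, and for the other 6 thymic Tconv lay lower as well as thymic Treg. Since the thymus mice were NOD, carried a transgenic T cell receptor and were younger, these differences are of tissue, strain, receptor and age together. Array series was partly bound to tissue as well. Thymus pairs 1 and 2 were in series 1 and 2, which hold no lymph node arrays, and thymus pair 3 shared series 3 with lymph node pair 1. With the series as a block 1369 genes were called for the level of thymus.

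In fat 3 of 8 genes were higher than in lymph node (42.7% of all genes called, 19.8% higher and 22.8% lower; on the values as deposited 7171 genes higher and 1236 lower against 2544 and 2928 here), Hopx (2.24 ± 0.14, limma adjusted p = 1.11e-09), Naip5 (2.08 ± 0.20, 2.62e-07) and Mtmr7 (1.43 ± 0.17, 2.66e-06). The other 5 were lower, 1110032F04Rik (-3.21 ± 0.34, 8.38e-07), Gm8369 (-2.79 ± 0.21, 1.88e-08), Prg4 (-1.50 ± 0.15, 3.56e-07), Bank1 (-0.92 ± 0.12, 1.02e-05) and Gsta4 (-0.70 ± 0.15, 0.000904). In Tconv alone 1110032F04Rik was lower (-1.89 ± 0.48). Gm8369 (-0.61 ± 0.30), Prg4 (-0.15 ± 0.21), Bank1 (0.22 ± 0.17) and Gsta4 (0.45 ± 0.21) were not called there. The lower mean of these genes thus came mostly from Treg, the same shift that is part of the gap that chose them. The value of Pla2g4f, dim in both tissues, was -0.53 ± 0.18. On the values as deposited, where the median of all genes moved by 0.35, Gsta4 was no longer called (-0.34, limma adjusted p = 0.0745). The second probe set of 1110032F04Rik gave 0.09 (0.427). The sum of 6 adipocyte markers was 2230.2 to 6243 in the fat arrays against 192 to 231 in lymph node, and that of 13 macrophage and monocyte markers 1113 to 4363 against 623 to 792. Their part in these differences, and that of stromal cells, was not tested.

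**Figure D4:**
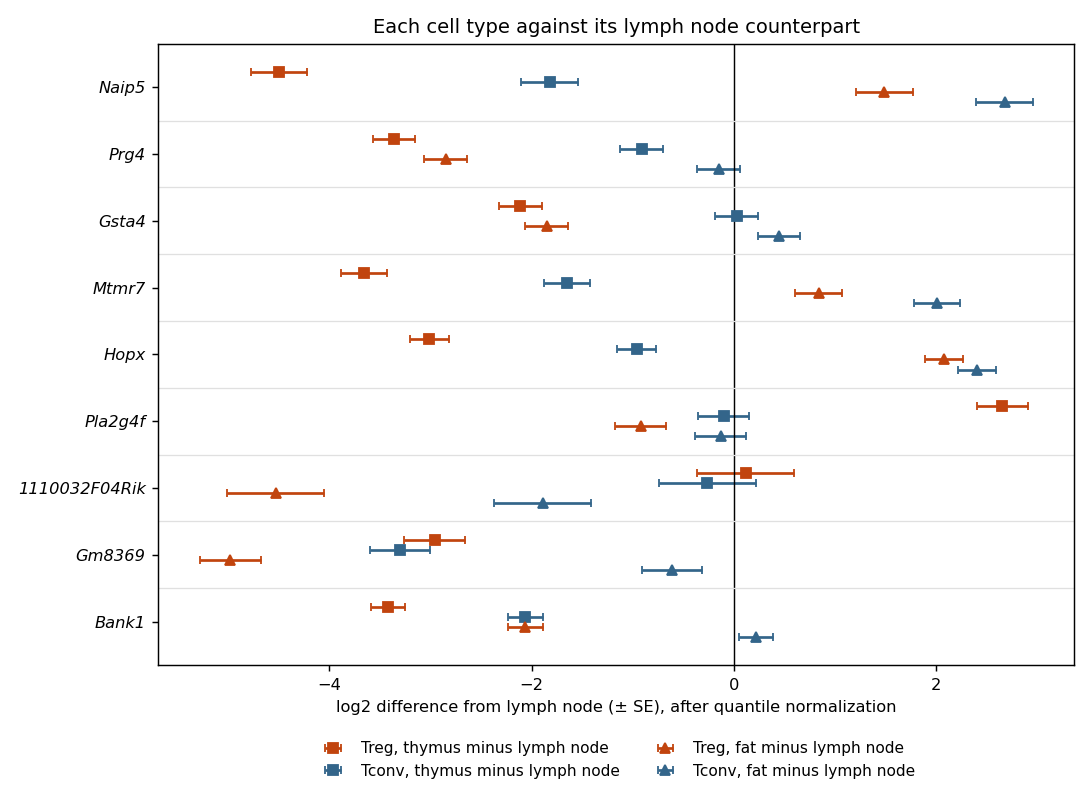
Difference of thymus (squares) and fat (triangles) from lymph node in Treg (red) and in Tconv (blue), in log2 after quantile normalization, with bars of ± 1 SE of the limma fit. A gene whose red and blue markers of one shape lie together away from 0 shifted in both cell types, such as Hopx in fat (2.08 and 2.41). One whose markers lie apart shifted by unlike amounts. This can be in 1 cell type, such as Gsta4 in fat (-1.85 in Treg, 0.45 in Tconv). It can also be in both, such as 1110032F04Rik in fat (-4.53 in Treg, -1.89 in Tconv).

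Set side by side, the cell types show where each gap lay. In Prg4 and Gsta4 the difference of fat from lymph node was -2.85 ± 0.21 and -1.85 ± 0.21 in Treg, and -0.15 ± 0.21 and 0.45 ± 0.21 in Tconv. In Naip5, Hopx and Mtmr7 Tconv of fat lay above those of lymph node, by 2.68 ± 0.28, 2.41 ± 0.19 and 2.01 ± 0.23, and Treg by 1.49 ± 0.28, 2.08 ± 0.19 and 0.84 ± 0.23. In 1110032F04Rik the difference of fat was -4.53 ± 0.48 in Treg and -1.89 ± 0.48 in Tconv, and that of thymus 0.12 ± 0.48 and -0.26 ± 0.48. In Pla2g4f thymus Treg stood above lymph node Treg by 2.66 ± 0.25 and Tconv differed by -0.10 ± 0.25.

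The genes also differ in what runs alongside them. Over the 18 arrays, each tissue centred on its mean, Naip5 was most like Hopx (Pearson r = 0.93) and Lclat1 (0.93), Hopx like Lclat1 (0.95) and Glrx (0.93), and Mtmr7 like Naip5 (0.92) and Fgd6 (0.88). Prg4 was most like Gsta4 (0.92) and Gbp2b (0.92), and Gsta4 like Gm4951 (0.94) and Prg4 (0.92). Gbp2b, an interferon-induced GTPase, had the same form as Prg4, with a Treg difference of 2.32 ± 0.20 in lymph node, 0.36 ± 0.20 in thymus and 0.06 ± 0.20 in fat. Pla2g4f was most like Fcrl1 (0.96) and Plaat3 (0.96), and 1110032F04Rik like Il10rb (0.94) and Eno3 (0.93).

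Gm8369 was most like Cxcr3 (0.93), a chemokine receptor of type 1 effector cells, and Arhgap26 (0.93). Cxcr3 was higher in Treg of lymph node by 0.84 ± 0.22 and of thymus by 2.25 ± 0.22 and lower in fat Treg by -4.01 ± 0.22, with means of 4994 in fat Tconv and 321 in fat Treg. Bank1 had no such close companion, with Ddx43 (0.82) and Gbp2 (0.81) the nearest; Ddx43 too was opposed in sign, 1.81 ± 0.28 in lymph node and -1.80 ± 0.28 in fat. Among the 9, r ranged from 0.93 for Naip5 and Hopx to -0.17 for Hopx and Gm8369. These correlations share the arrays and the groups and describe the data only.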

How the data were processed

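The deposited table holds 1 intensity per probe set and array on a linear scale, which the authors made with RMA in GenePattern per the series' design text; which arrays were normalized together is not given in the sources used here. Of 45101 probe sets, 34945 carried 1 gene symbol, 932 several and 9160 none, and 64 were controls; the symbols come from a table of the platform's annotation. Each of 18193 genes was represented by its probe set of highest mean log2 intensity over 18 arrays, and other probe sets served as a check. Genes with no group mean over the median value of the table (intensity 65.9, or 6.04 in log2) were left out, so 12821 were tested.

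On log2 values a model with a coefficient for each group was fitted by limma 3.58.1 under R 4.3.3 (lmFit, then eBayes; degrees of freedom 12 residual, 4.83 prior), with Benjamini-Hochberg adjustment over the 12821 genes. Treg minus Tconv was fitted on the values as deposited and differences between tissues after quantile normalization of all 18 arrays. The script was tested on simulated data. Replicates are pools of mice, so p-values measure the spread between pools. No depth exists for arrays; 3 arrays per group limit the precision.

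Treg and Tconv arrays of the same number varied together. Their deviations from the group means correlated at 0.35 to 0.68 in the 9 pairs, each over 0.1. The numbers of the array files also group the pairs. Each pair of the same tissue and number was therefore also fitted as a block, called the replicate block. It was a fixed term in the Treg contrasts and a random effect in the levels of a tissue. Counts with the block thus come from unlike models for these kinds of contrast. The file numbers fall into 5 series, which served as another block.

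The members, the gene lists, the marker lists and the tests were chosen with earlier results of these data known. Named besides the 9 genes are, of each list, up to 3 called genes per direction and tissue by size, for each member the 2 tested genes with the highest Pearson r over 18 arrays after centring each tissue, and of each marker list up to 3 markers with the highest mean; other markers that were called were named after their values were seen. The mean Treg difference and the tissue means are uncorrelated by design with the gaps that chose the genes, but share their estimate of spread. The mean Treg difference is made of the Treg differences of each tissue, which also belong to the values that chose the genes.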

Additional observations from a re-analysis of the deposited data

Results flagged for a closer look

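For the gaps below the difference between tissues in the Treg minus Tconv contrast itself passed limma's test (Benjamini-Hochberg adjusted p under 0.05 over 12821 genes). The 9 genes were chosen for such gaps, so theirs add nothing to their selection. In thymus minus lymph node the gaps (log2) were -2.76 for Naip5, -2.51 for Prg4, -2.20 for Gsta4, -2.03 for Mtmr7, -2.03 for Hopx, -1.42 for Bank1 and 2.83 for Pla2g4f. In fat minus lymph node they were -4.36 for Gm8369, -2.73 for Prg4, -2.66 for 1110032F04Rik, -2.32 for Gsta4, -2.31 for Bank1 and -1.24 for Mtmr7.

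Among the listed relatives, Fosl2 (1.74, limma adjusted p = 0.0476) and Plaat3 (2.02, 0.000446) had a wider Treg difference in thymus than in lymph node. In fat minus lymph node the gap was -3.08 for Ms4a4c (0.000119), -2.59 for Ms4a6b (3.65e-05), -2.40 for Ms4a4b (2.17e-06), -2.16 for Casp1 (0.000136) and -0.71 for Mtmr3 (0.01). It was 1.74 for Fosb (0.0139), 1.51 for Sdc4 (0.00698) and 0.85 for Il18 (0.0334). Ms4a6c, outside the naming rule and named after its values were seen, also passed (-1.47, limma adjusted p = 0.0342). Gaps of the marker genes and of the most similar genes were not gone through. All gaps use the same lymph node arrays. Single arrays were not screened for outliers, since each group has 3.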

How the results depend on the processing

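The counts of genes called were 554, 638 and 1476 for the Treg difference in lymph node, thymus and fat, 39 and 622 for the gaps of thymus and fat to lymph node, 1684 for the mean Treg difference, and 2560 and 5472 for the levels of thymus and fat against lymph node. With the replicate block they were 1028, 1528, 2652, 136, 1416, 2853 and 1669, the last for the level of thymus. With the array series as a block they were 876 (lymph node), 1209 (thymus), 82 and 1090 (gaps) and 1369 (level of thymus). With all probe sets of 1 symbol tested, a larger set, they were 2393 (fat), 969 (gap of fat), 2789 (mean), 4524 and 12599 (levels). The fit of thymus arrays alone, with fewer samples, called 383. On the values as deposited 8407 genes differed between fat and lymph node.

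Leaving out 1 array gave 388 to 464 genes in lymph node, 437 to 976 in thymus (976 without thymus Treg replicate 3), 1104 to 1593 in fat, 24 to 69 for the gap of thymus (69 without thymus Treg replicate 3, 24 without thymus Tconv replicate 2 and 25 without lymph node Tconv replicate 3) and 468 to 766 for that of fat. It gave 1483 to 1802 for the mean Treg difference, 2056 to 2720 for the level of thymus and 4910 to 5482 for that of fat. The cause was not tested.

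Of the 9 genes, 1110032F04Rik changed sign on its second, dim probe set: -0.22 for lymph node, 0.13 for the gap of fat, -0.06 for the mean and 0.09 for the level of fat. The second probe set of Mtmr7 lost the calls in lymph node (0.50), of the gaps of thymus (-0.37) and fat (-0.16) and of the mean (0.33). That of Hopx lost the call of the gap of thymus (-1.14). In the tested measures the block changed no call of the 8 genes tested; in the contrasts that chose the genes it added calls of Prg4 (thymus), Mtmr7 (fat), Pla2g4f (lymph node) and Naip5 (gap of fat), whose values stand beside them. Group means at or under the dim limit limit Naip5, Prg4, Gsta4, Mtmr7 and Bank1 in thymus, Prg4, Gsta4, Mtmr7 and 1110032F04Rik in lymph node Tconv, Gm8369 and 1110032F04Rik in thymus Tconv, Prg4 in fat Tconv, Gm8369 in fat Treg, 1110032F04Rik in fat and Pla2g4f outside thymus Treg.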
